A study of Mus musculus with 4 samples.

Results

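Actc1, Acta1, Acta2, Tagln, Cnn1, Myl9, Srf, Ctgf, Cyr61 and Ankrd1 are genes commonly used to read out 2 transcription factor systems, serum response factor (SRF) and YAP with its TEAD partners. They are described here in mouse 3D-retinas treated with 4-hydroxytamoxifen (4-OHT), with or without vitamin E or lutein. The 10 genes were chosen by name after earlier results of these arrays were known, so their levels below are a description with no test. They were read by 11 probes on 20 spots, among 35753 genes, 55681 probes and 59305 gene spots on the array.

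The 3D-retinas were grown from Nrl-GFP mouse induced pluripotent stem cells, a line in which a rod photoreceptor promoter drives a fluorescent reporter. Each of the 4 groups was 1 pool of 24 3D-retinas, with treatment from day 23 of differentiation and RNA taken on day 25. Vitamin E (400 µM) was given together with 4-OHT in the first group and lutein (200 nM) in the second, the third had 4-OHT alone, and the fourth had ethanol vehicle. The dose of 4-OHT was 5 µM wherever it was given. With 1 array per group there is no replicate check, and no p-value could be given. A level is the log2 signal of a probe minus the 75th percentile of its array, so that a level of 0 is as bright as that percentile and a negative level is dimmer. The ± value beside a difference is the SD expected between spots of that brightness, taken from 399 probes printed on 10 spots of each array. It covers spot error alone, not the spread between cultures.

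SRF binds the CArG box and works with either of 2 kinds of cofactor. The myocardin-related factors MRTF-A and MRTF-B are held by monomeric actin and act on cytoskeletal and contractile genes when actin polymerises, whereas ternary complex factors such as Elk1 act on immediate early genes downstream of MAP kinases. YAP and TAZ are held in the cytoplasm by the Hippo kinases and, in the nucleus, act through TEAD factors on genes such as Ctgf, Cyr61 and Ankrd1. Both systems respond to cell shape and tension, and they share targets. In the retina, contractile genes are best known from vascular smooth muscle and pericytes, and YAP from Müller glia and pigment epithelium.

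The 250 bases upstream of the gene start are shown for 4 of the genes, because they carry the letters by which the 2 systems are told apart. Capitals mark CArG boxes in the strict form CCWWWWWWGG, where W is A or T. They also mark the letters GGAATG, a core often bound by TEAD factors, searched on both strands (CATTCC on the printed one). The sequences are RefSeq's on GRCm38.p6, each written on the strand of its gene, 5′ to 3′. Actc1 lies at chr2:114052876-114053125 (minus strand), Acta1 at chr8:123894776-123895025 (minus strand), Srf at chr17:46556163-46556412 (minus strand) and Cyr61, now named Ccn1, at chr3:145649986-145650235 (minus strand).
Actc1: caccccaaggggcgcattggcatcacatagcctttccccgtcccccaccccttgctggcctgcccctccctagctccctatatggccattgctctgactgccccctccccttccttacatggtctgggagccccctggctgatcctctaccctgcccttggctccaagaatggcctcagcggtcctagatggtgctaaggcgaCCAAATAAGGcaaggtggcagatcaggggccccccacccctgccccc
Acta1: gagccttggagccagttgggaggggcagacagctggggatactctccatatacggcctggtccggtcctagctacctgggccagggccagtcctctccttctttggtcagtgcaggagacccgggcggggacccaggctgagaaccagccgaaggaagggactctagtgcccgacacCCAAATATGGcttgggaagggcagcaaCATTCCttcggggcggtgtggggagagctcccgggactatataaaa
Srf: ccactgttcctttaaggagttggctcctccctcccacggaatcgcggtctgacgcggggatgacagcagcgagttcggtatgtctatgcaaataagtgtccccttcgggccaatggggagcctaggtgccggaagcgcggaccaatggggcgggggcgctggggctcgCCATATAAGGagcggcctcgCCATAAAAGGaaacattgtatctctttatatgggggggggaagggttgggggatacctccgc
Cyr61: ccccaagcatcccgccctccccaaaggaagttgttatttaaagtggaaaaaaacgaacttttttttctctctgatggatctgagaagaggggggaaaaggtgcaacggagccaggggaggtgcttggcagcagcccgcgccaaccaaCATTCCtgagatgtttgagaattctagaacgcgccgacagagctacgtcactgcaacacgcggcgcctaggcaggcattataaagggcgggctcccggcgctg

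Promoter entries were matched for 8 of the 10 genes; Tagln and Ctgf (now Ccn2) were not matched. A CArG box of the strict form was found upstream of 4 genes. It lay 47 to 38 bases before the start of Actc1, 73 to 64 before Acta1 and 161 to 152 before Myl9, and Srf held a pair, 82 to 73 and 62 to 53 bases before its start. GGAATG was found upstream of 4 genes, 46 to 41 bases before the start of Acta1, 146 to 141 before Acta2, 103 to 98 before Cyr61, and at both 210 to 205 and 123 to 118 before Ankrd1. By these letters, Acta1 was the 1 gene with both, the 2 motifs did not overlap in it, and Cnn1 was the 1 gene with neither. Looser CArG forms, such as ccctatatgg upstream of Acta2 and Actc1, were not searched, so these counts hold for the strict form alone. Among 32851 promoters in the RefSeq table, the same window held a strict CArG box in 1.47% (482) and GGAATG in 12.6% (4153). A match is a description of letters and does not show a bound site.

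Of the 10 genes, 8 were well above background with vitamin E, 7 with lutein, 7 with 4-OHT alone and 6 with vehicle. Actc1, Tagln, Myl9, Srf and Ctgf were well above background on all 4 arrays, and Cnn1 and Ankrd1 on none. The genes did not move as 1 group. Actc1, Cyr61, Tagln and Ctgf were higher with 4-OHT alone than with vehicle by more than the spread between spots. For Tagln and Ctgf the difference was less than 2-fold. Myl9 was lower, and the 2 probes of Srf went opposite ways.

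**Figure D1:**
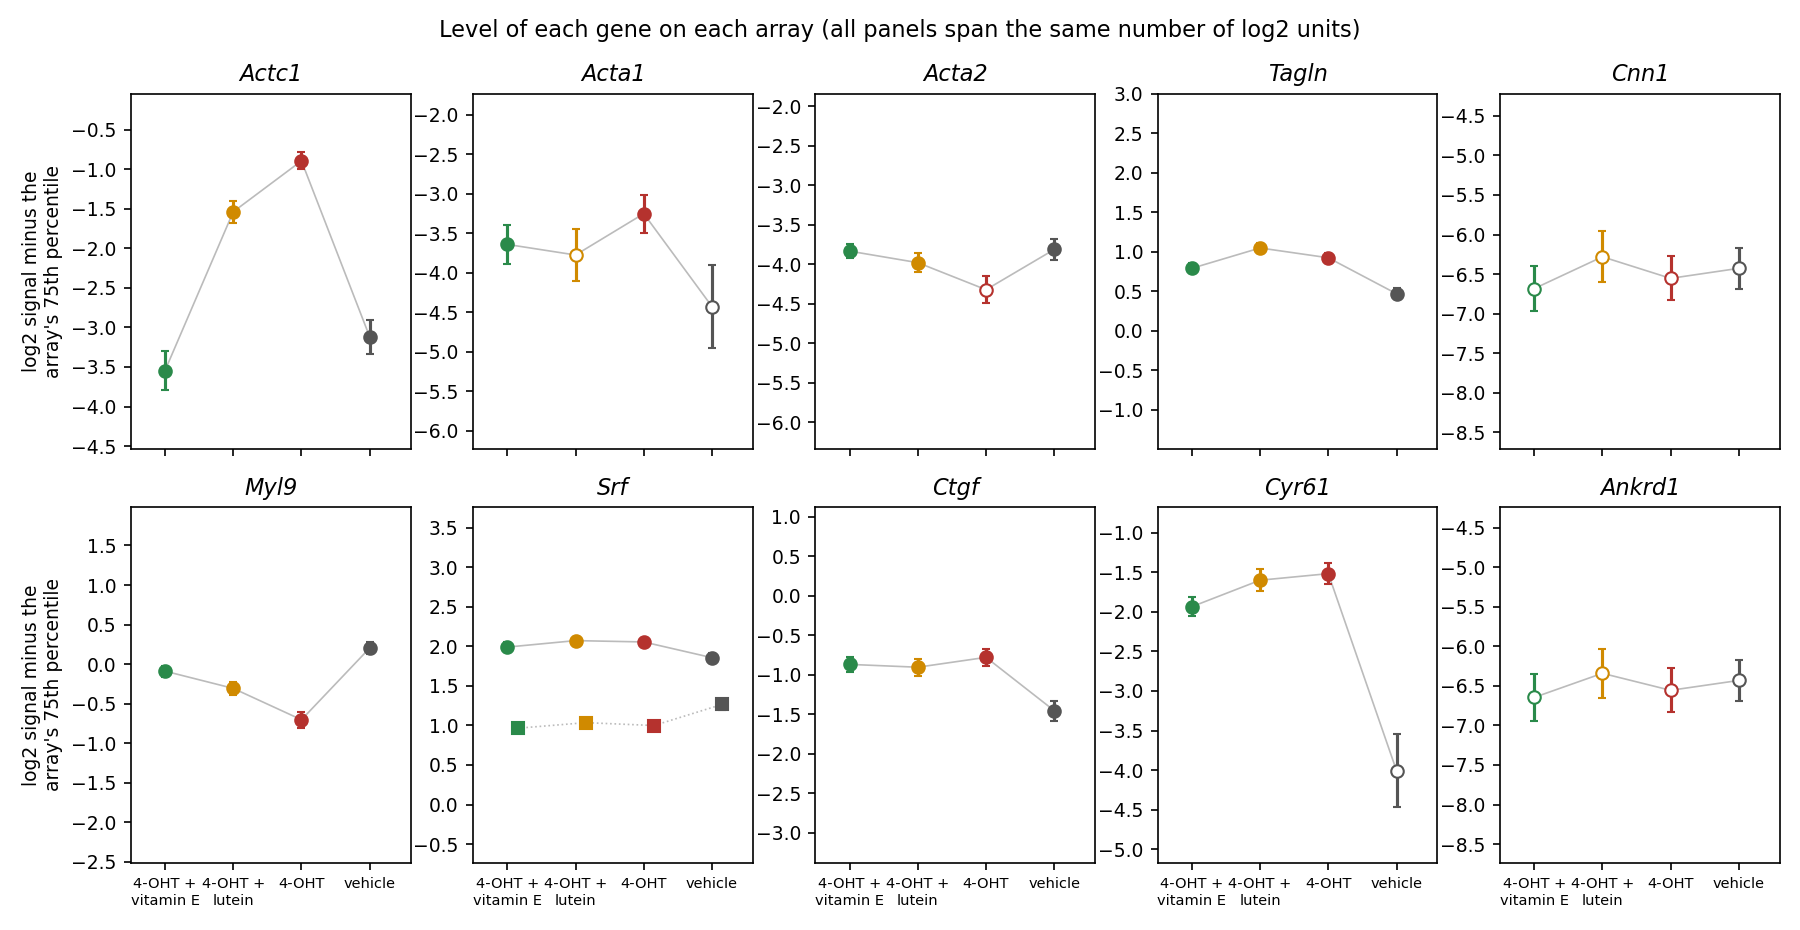
Level of each of the 10 genes on the 4 arrays (log2 signal minus the array's 75th percentile; 1 array per group; filled points are well above background, open points are not; squares are the second probe of Srf). Bars are the SD expected between spots at that level, divided by the square root of the number of spots. Actc1 is high with lutein and with 4-OHT alone and low with vitamin E and with vehicle, whereas Cyr61 is high on all 3 arrays that had 4-OHT.

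Actc1 encodes cardiac alpha-actin, the sarcomeric actin of heart that is also made in embryonic skeletal muscle. Its probe lies at chr2:113873064-113873123 (mm9, minus strand). The level of Actc1 was -3.55 with vitamin E, -1.54 with lutein, -0.89 with 4-OHT alone and -3.12 with vehicle. It was thus high on 2 of the 3 arrays with 4-OHT, and the array with vitamin E was the dimmest of the 4. Actc1 was 4.68-fold higher with 4-OHT alone than with vehicle, a log2 difference of 2.23 ± 0.24. With vitamin E added it was 6.29-fold lower than with 4-OHT alone (log2 difference -2.65 ± 0.27). With lutein added it was 1.56-fold lower than with 4-OHT alone (-0.64 ± 0.17), and it stayed above vehicle by a log2 difference of 1.58 ± 0.25. With normexp background correction these log2 differences were 1.41 for 4-OHT alone against vehicle, -1.61 for vitamin E against 4-OHT alone and 0.84 for lutein against vehicle, the last short of 2-fold. Against vehicle, the array with vitamin E differed by -0.43 ± 0.33 in log2, little more than the spread between spots.

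Acta1 encodes skeletal alpha-actin. Its probe (chr8:126416197-126416256 on mm9, minus strand) is shown because the coding sequences of actin genes are, as background, known to be much alike. The probe's bases were not compared with other actin transcripts.
Acta1 probe: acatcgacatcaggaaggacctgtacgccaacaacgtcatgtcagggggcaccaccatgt
Whether signal from other actins reached this probe was not tested. The level of Acta1 was -3.64 with vitamin E, -3.77 with lutein, -3.25 with 4-OHT alone and -4.43 with vehicle. It was not well above background with lutein or with vehicle, so these 2 levels are only bounds. Acta1 was at least 2.04-fold higher with 4-OHT alone than with vehicle. Such a bound sets the bright array against the dimmest signal called well above background on the other array, or against the dim probe's own signal where that is higher. The log2 bound of 1.03 stood beside a spot SD of 0.58, so that neither its distance from 0 nor its place past 2-fold is firm. It was 0.76 with quantile normalization, 0.87 with spike-in scaling and 0.40 with normexp background correction, each short of 2-fold. With vitamin E added, Acta1 differed from 4-OHT alone by -0.39 ± 0.35 in log2. With lutein added it was at least 1.44-fold lower than with 4-OHT alone (-0.52 ± 0.41).

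Actb and Actg1, the cytoplasmic actins that make up the bulk of actin in non-muscle cells, did not show the higher level of Actc1. They differed by -0.21 and -0.23 in log2 between 4-OHT alone and vehicle. Actg2, the enteric smooth muscle actin, was not well above background on any array.

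Acta2 encodes the alpha-actin of smooth muscle and myofibroblasts. Its probe was printed on 10 spots of each array, so that it is the 1 gene of the 10 whose spot error was measured directly. Acta2 averaged -3.84 ± 0.33 over 10 spots with vitamin E, -3.98 ± 0.32 over 9 with lutein, -4.32 ± 0.47 over 9 with 4-OHT alone and -3.82 ± 0.50 over 10 with vehicle (SD between spots of 1 array). Spots well above background numbered 9, 5, 4 and 8 in the same order, and the ranges of the 4 arrays overlapped. With 4-OHT alone, under 50% of its spots were well above background, and the mean lay 0.51 below that with vehicle in log2 (difference -0.51). On spots at the same position of both arrays the log2 difference averaged -0.43 ± 0.44 (SD over 9 spots), and 1 of the 9 was higher with 4-OHT alone. Acta2 was thus near the limit of detection everywhere, and it did not show the higher level of Actc1.

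**Figure D2:**
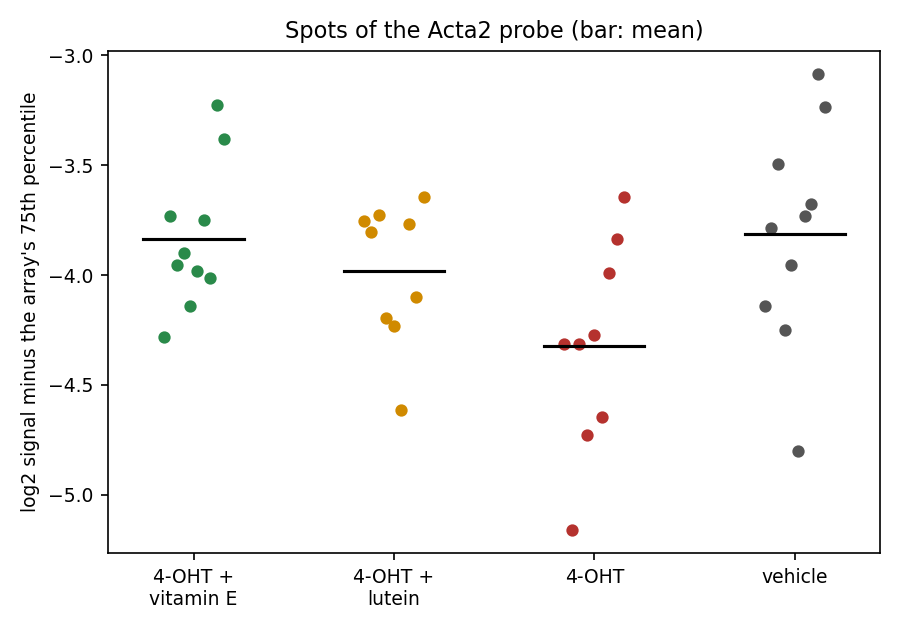
Spots of the Acta2 probe on each array (log2 signal minus the array's 75th percentile; points are spots, bars their mean, outlier spots left out). The means lie between -4.32 with 4-OHT alone and -3.82 with vehicle, and the spots of the 4 arrays overlap.

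Tagln encodes transgelin (SM22 alpha), an actin-binding protein of smooth muscle and a standard MRTF target. Its level was 0.79 with vitamin E, 1.05 with lutein, 0.92 with 4-OHT alone and 0.47 with vehicle. All 3 arrays with 4-OHT lay above vehicle and close to one another. Tagln was 1.37-fold higher with 4-OHT alone than with vehicle, a log2 difference of 0.46 ± 0.10. Against 4-OHT alone, the log2 difference was -0.13 ± 0.09 with vitamin E and 0.12 ± 0.09 with lutein.

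Myl9 encodes the regulatory light chain of smooth muscle and non-muscle myosin II. It ran the other way. Its level was -0.09 with vitamin E, -0.31 with lutein, -0.71 with 4-OHT alone and 0.20 with vehicle. Myl9 was 1.88-fold lower with 4-OHT alone than with vehicle, a log2 difference of -0.91 ± 0.12 that is larger than the spread between spots and short of 2-fold. Against 4-OHT alone, Myl9 was higher by 0.62 ± 0.12 in log2 where vitamin E was added and by 0.40 ± 0.13 where lutein was added. Mylk, the kinase that phosphorylates this light chain, differed in the same direction, by -0.77 in log2 between 4-OHT alone and vehicle. Cnn1, calponin of differentiated smooth muscle, had levels between -6.69 and -6.28 and was not well above background on any array, so no fold is given.

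Srf encodes the transcription factor itself, which also has CArG boxes in its own promoter, as shown above. The brighter of its 2 probes (chr17:46683945-46684003, mm9, minus strand) had levels of 1.99 with vitamin E, 2.07 with lutein, 2.06 with 4-OHT alone and 1.86 with vehicle. The other probe (chr17:46685306-46685365) had levels of 0.97 with vitamin E, 1.04 with lutein, 1.00 with 4-OHT alone and 1.27 with vehicle. The log2 difference between 4-OHT alone and vehicle was 0.20 ± 0.08 by the brighter probe and -0.27 ± 0.09 by the other. The probes read different stretches of the same transcript and disagreed in sign in each comparison with vehicle, so that no direction is given for Srf. Against 4-OHT alone, both probes were within 0.07 of it with vitamin E or with lutein.

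Cyr61 (Ccn1) and Ctgf (Ccn2) encode secreted matricellular proteins of the CCN family and are the most used YAP and TAZ targets, though SRF acts on both as well. The level of Cyr61 was -1.93 with vitamin E, -1.60 with lutein, -1.52 with 4-OHT alone and -4.01 with vehicle, where it was not well above background. All 3 arrays with 4-OHT were far above the vehicle array. Cyr61 was at least 5.63-fold higher with 4-OHT alone than with vehicle, a log2 bound of 2.49 ± 0.48, beside 2.23 ± 0.24 for Actc1. It was at least 4.21-fold higher than vehicle with vitamin E and at least 5.31-fold higher than vehicle with lutein. With normexp background correction, the log2 difference from vehicle was 0.97 with vitamin E, short of 2-fold, 1.22 with lutein and 1.23 with 4-OHT alone, so that the size of the bounds depends on the background correction. Against 4-OHT alone, Cyr61 differed by -0.42 ± 0.18 in log2 with vitamin E and by -0.08 ± 0.19 with lutein.

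The level of Ctgf was -0.87 with vitamin E, -0.91 with lutein, -0.78 with 4-OHT alone and -1.46 with vehicle. The 3 arrays with 4-OHT lay close together and above vehicle. Ctgf was 1.60-fold higher with 4-OHT alone than with vehicle (log2 difference 0.67 ± 0.16). The log2 difference from vehicle was 0.59 ± 0.16 with vitamin E and 0.55 ± 0.17 with lutein. Ankrd1, a cardiac ankyrin repeat protein that YAP drives in many cell types, had levels between -6.65 and -6.34 and was not well above background on any array. Of the other CCN genes, Nov and Wisp2 were on no array well above background, and Wisp1 differed by -0.17 in log2 between 4-OHT alone and vehicle by its brighter probe and by 0.16 by the other.

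With 4-OHT alone against vehicle, 8 of the 10 genes could be compared, and 3 of them (Actc1, Acta1 and Cyr61) were at least 2-fold higher, where 7.75% of 22084 genes were at least 2-fold higher. None was at least 2-fold lower, against 3.14% of all genes. The median log2 difference was 0.57 over the 8 genes and -0.06 over all genes compared. Since the genes were chosen with these values known, and Acta1 and Cyr61 could be compared only through the array where they were bright, nothing is read from these counts.

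With vitamin E added to 4-OHT against 4-OHT alone, Actc1 was the 1 gene of 8 at least 2-fold lower, where 8.81% of all genes were. None of the 8 was at least 2-fold higher, against 1.48% of all genes. With lutein added to 4-OHT against 4-OHT alone, none of the 8 was at least 2-fold higher or lower, where 1.15% of all genes were higher and 3.84% lower. The medians of the 8 genes were -0.11 with vitamin E and -0.03 with lutein, against 0.08 over all genes in either comparison.

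Against vehicle, 1 gene of 8, Cyr61, was at least 2-fold higher with vitamin E, where 1.09% of all genes were higher and 1.98% lower. With lutein, Actc1 and Cyr61 were at least 2-fold higher of 7 genes compared, where 3.43% of all genes were higher and 1.49% lower. No gene of the 10 was at least 2-fold lower than vehicle on either array. The comparisons share arrays, 4-OHT alone in 3 of the 5 and vehicle in 3 of the 5, so their agreement or contrast is not independent.

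**Figure D3:**
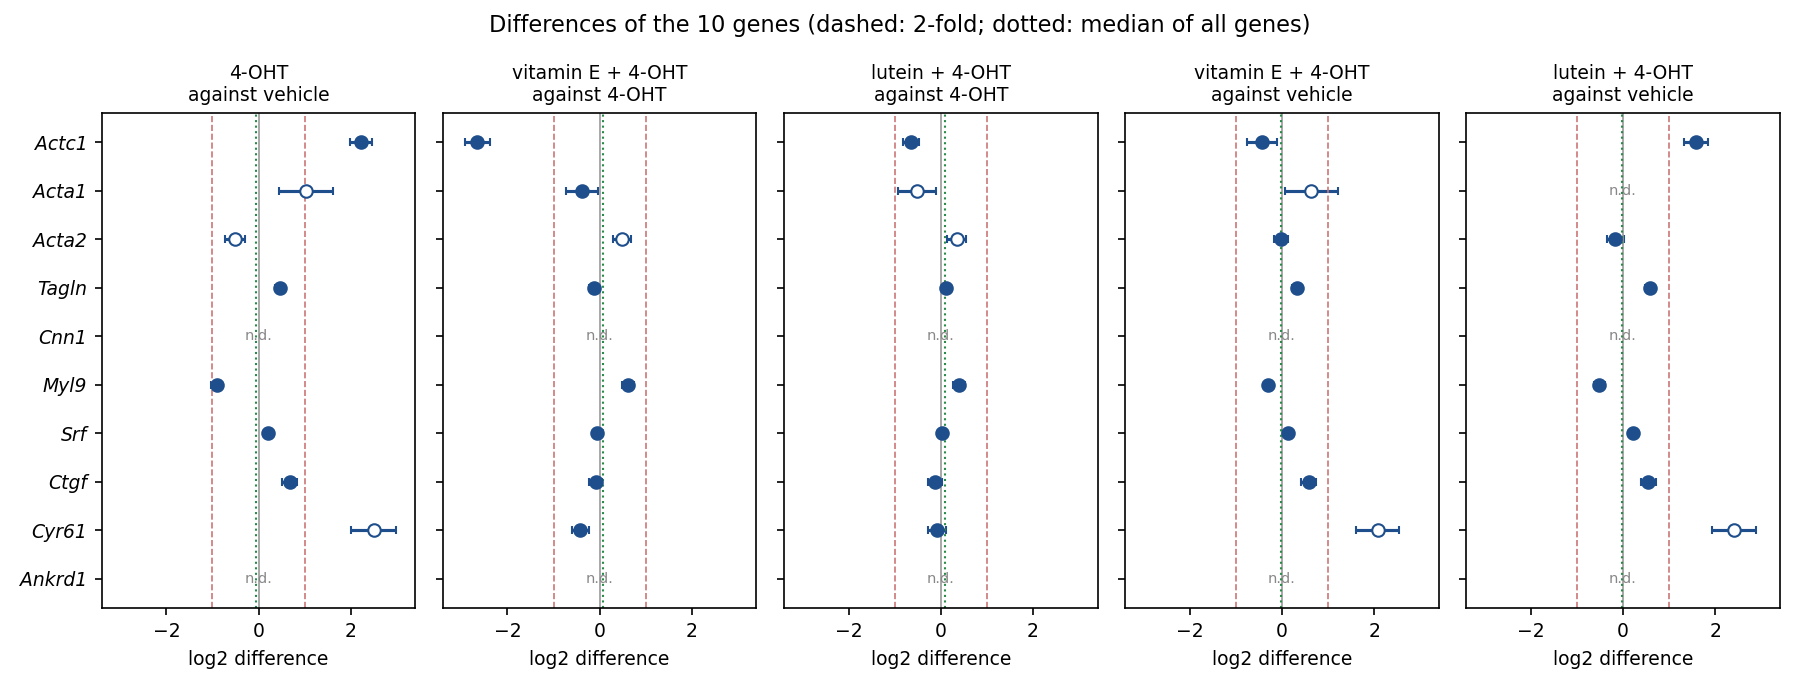
Log2 differences of the 10 genes in the 5 comparisons (filled points are measured on both arrays, open points are bounds, n.d. is not well above background on either array; bars are the spot SD of the difference; dashed lines 2-fold; dotted line the median of all genes). Actc1 is at 2.23 against vehicle for 4-OHT alone and at -2.65 with vitamin E against 4-OHT alone, whereas Cyr61 stays at 2.07 or more against vehicle on all 3 arrays with 4-OHT.

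Set side by side, Actc1 and Cyr61 differed most on the array with vitamin E. The log2 difference from vehicle there was -0.43 for Actc1 and at least 2.07 for Cyr61. For 4-OHT alone the values were 2.23 and at least 2.49, and for lutein 1.58 and at least 2.41. The order of the 4 arrays also differed between genes. Actc1 ran from 4-OHT alone as the brightest to lutein, vehicle and vitamin E, and the last 2 were 1.3 spot SDs apart. In Myl9 vehicle was brightest, then vitamin E, lutein and 4-OHT alone. In Ctgf the 3 arrays with 4-OHT were not separated by more than the spread between spots, and all 3 lay above vehicle. In Cyr61 the arrays with 4-OHT alone and with lutein were not separated beyond that spread either.

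The other genes of both systems came from lists of pathway genes. Among 35 further cytoskeletal genes attributed to SRF and MRTF, 31 could be compared between 4-OHT alone and vehicle, 2 were at least 2-fold higher and 1 was at least 2-fold lower, where 7.75% and 3.14% of all genes were. The median was 0.19, and 24 were above 0. The 2 higher ones were Pdlim7, a PDZ and LIM domain protein of actin filaments (7.10-fold, log2 difference 2.83), and Zyx, the focal adhesion protein zyxin (2.12-fold, 1.09). Pdlim7 had a level of 1.01 with vitamin E, 2.55 with lutein, 3.66 with 4-OHT alone and 0.84 with vehicle. Its 3 probes differed in size, from 0.985 to 3.099, and had the same sign. Tgfb1i1, the focal adhesion protein Hic-5, was the 1 lower gene (-1.04). Fhl1 and Fblim1, both LIM domain proteins, came next at 0.91 each, short of 2-fold. These counts use each gene's brightest probe, which gave 0.08 for Tln1 and -0.42 for Tpm3. Another probe gave 1.165 for Tln1 and -1.70 for Tpm3, both past 2-fold. Myh11, Des and Lmod1, which mark differentiated smooth muscle, were on no array well above background.

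The list of immediate early genes that SRF serves with ternary complex factors stood apart in the size of its differences. This list was chosen with earlier results known, and which factor acted on its genes was not tested. Of 9 such immediate early genes compared, 8 were at least 2-fold higher with 4-OHT alone than with vehicle and none lower, against 7.75% and 3.14% of all genes, with a median of 3.50. Fos, a subunit of AP-1, was 32.6-fold higher (log2 difference 5.03), and Egr1, a zinc finger factor, 22.5-fold higher (4.49). Egr2 was at least 26.2-fold higher, Junb 13.8-fold higher and Fosb 11.3-fold higher. Ier2, an immediate early nuclear protein, was 7.55-fold higher. With vitamin E added, 8 of the 9 were at least 2-fold lower than with 4-OHT alone, against 8.81% of all genes (median -1.62), and with lutein none was (median -0.28). With vitamin E, 4 of the 9 were at least 2-fold above vehicle, against 1.09% of all genes, with a median of 0.91.

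The cofactors and upstream genes were mixed. Mkl1, which encodes MRTF-A, differed by 0.09 in log2 between 4-OHT alone and vehicle, and Mkl2, which encodes MRTF-B, by -0.06. Myocd, the cofactor myocardin of muscle, was well above background with 4-OHT alone and on no other array, at least 1.20-fold higher than vehicle. Of 19 genes of this list compared, Rhob, a small GTPase that is itself an early response gene, was the 1 at least 2-fold higher (1.09) and none was lower, against 7.75% and 3.14% of all genes. The median was 0.09. Elk3 and Elk1, both ternary complex factors, differed by 0.93 and 0.58, the kinase Limk2 by 0.71 and the formin Diaph3 by -0.90, all short of 2-fold.

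Of 20 further signature genes of YAP and TAZ, 17 could be compared, 2 were at least 2-fold higher and 1 was at least 2-fold lower, against 7.75% and 3.14% of all genes, with a median of 0.15. F3, which encodes tissue factor, was 6.84-fold higher, a log2 difference of 2.77. Its level was -3.41 with vitamin E, -0.89 with lutein, -0.55 with 4-OHT alone and -3.33 with vehicle, so that vitamin E and vehicle were both low, as for Actc1 and unlike Cyr61. Igfbp3, an insulin-like growth factor binding protein, was 2.73-fold higher (1.45). Nt5e, the ectonucleotidase CD73 that is also a surface marker of rod precursors, was lower (-1.11). Amotl2, a junctional protein and frequent YAP target, differed by 0.06, and Ajuba, a LIM protein, by 0.15.

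Among the Hippo, YAP and TEAD genes themselves, 3 of 18 compared were at least 2-fold higher with 4-OHT alone than with vehicle and none was lower, against 7.75% and 3.14% of all genes, with a median of 0.25. Wwtr1, which encodes TAZ, had levels of -0.13 with vitamin E, 0.98 with lutein, 1.07 with 4-OHT alone and -0.19 with vehicle. It was 2.40-fold higher with 4-OHT alone than with vehicle (log2 difference 1.26) and differed by -1.20 with vitamin E against 4-OHT alone. Wwc1, which encodes the Hippo scaffold KIBRA, was 2.39-fold higher, and Tead3 was 2.24-fold higher (1.16). Tead1 and Tead2 differed by 0.58 and 0.56 by their brightest probes. Another probe gave 1.08 for Tead1, past 2-fold, and 0.74 for Tead2. Yap1 differed by 0.15, and Tead4 was not well above background on any array.

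**Figure D4:**
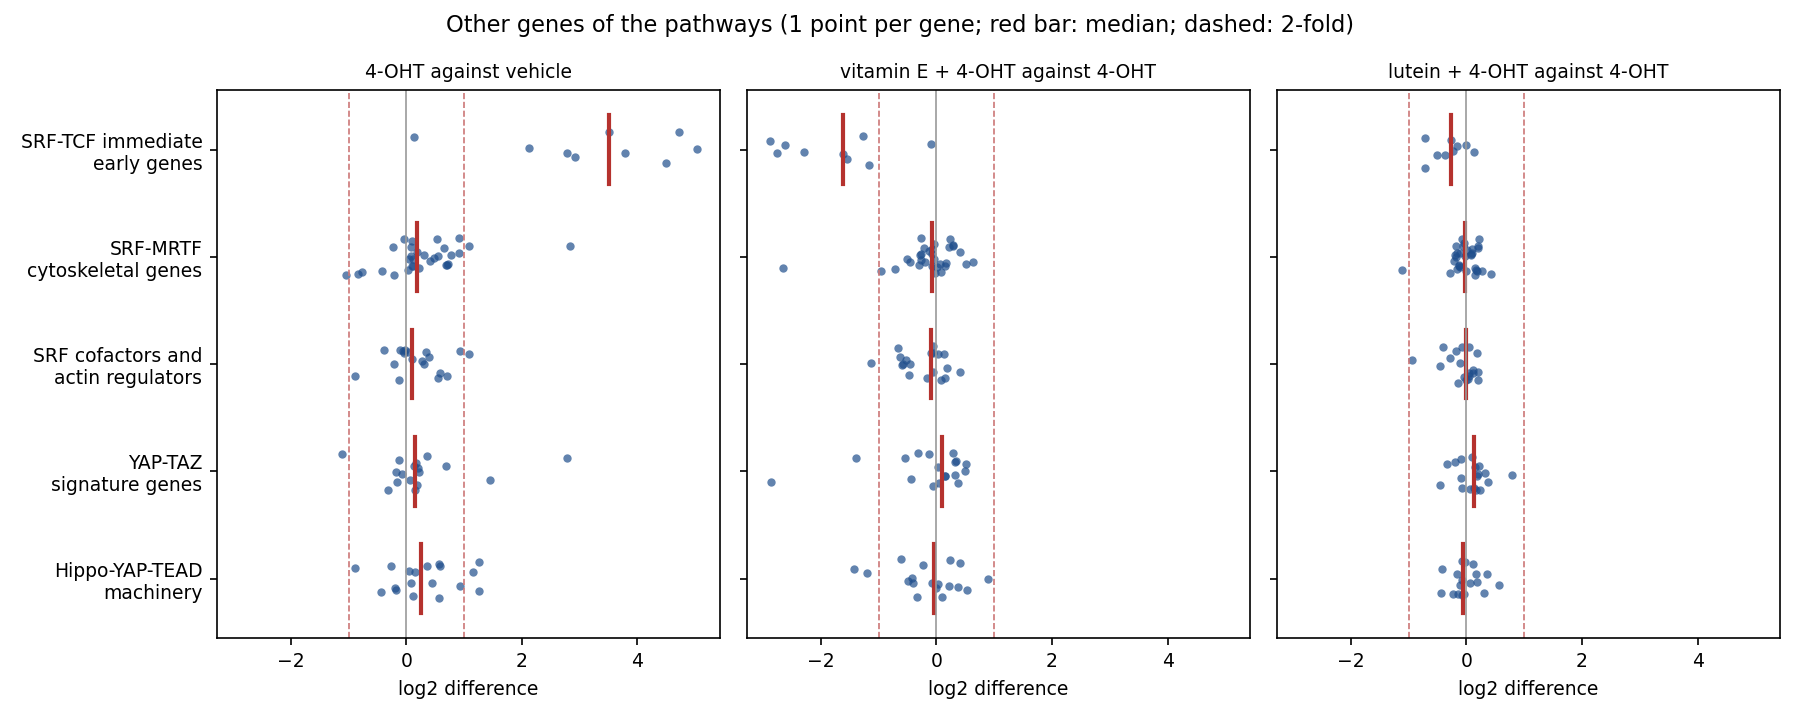
Log2 differences of the other genes of both systems in 3 comparisons (1 point per gene, red bars the median of each list, dashed lines 2-fold). The immediate early genes have a median of 3.50 for 4-OHT alone against vehicle, -1.62 for vitamin E added and -0.28 for lutein added, whereas the medians of the other 4 lists lie between 0.09 and 0.25 for 4-OHT alone against vehicle.

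Ankrd1's muscle relatives were mixed. Of 4 compared between 4-OHT alone and vehicle, 1 was at least 2-fold higher and 1 at least 2-fold lower, against 7.75% and 3.14% of all genes. Cmya5, a sarcomeric protein, was 2.38-fold higher with 4-OHT alone than with vehicle (1.25), and Ankrd2, the skeletal muscle ankyrin repeat protein, was 3.62-fold lower. Of 7 genes of the TGF-beta list compared, 1 was at least 2-fold higher and none lower, beside the same shares of all genes. The higher gene was Bhlhe40, a basic helix-loop-helix repressor that many stimuli induce (2.63). Thbs1 and Tgfb1, also of that list, were on no array well above background.

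Markers of cell types in which the 10 genes are usually high were set beside these values. Of 25 striated muscle markers, 7 were well above background with vitamin E, 8 with lutein, 9 with 4-OHT alone and 8 with vehicle, and 15 on no array, Myod1, Myog, Ckm and Ttn among them. Their summed signal, in units of each array's 75th percentile, was 2.57 with vitamin E, 2.59 with lutein, 2.43 with 4-OHT alone and 2.94 with vehicle. Tnnt1, slow troponin T, carried the largest part of the sum on every array. Their part in the level of Actc1 was not tested. Tnnt2, cardiac troponin T, was well above background with 4-OHT alone and on no other array, at least 1.73-fold higher than vehicle. Of 9 striated muscle markers compared between 4-OHT alone and vehicle, 2 were above 0 and 7 below, with a median of -0.31. None was at least 2-fold higher and 1 was at least 2-fold lower (Pax7, -1.44), against 7.75% and 3.14% of all genes. Of 11 smooth muscle and pericyte markers, 3 were well above background on each array (Smtn, Notch3 and Synpo2) and 8 on none, and their sum was 2.87 with vitamin E, 2.61 with lutein, 2.31 with 4-OHT alone and 2.20 with vehicle.

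Of 10 fibroblast markers, 5 were well above background with vitamin E, 2 with lutein, 2 with 4-OHT alone and 3 with vehicle, with sums of 1.59, 1.37, 1.08 and 1.46 in that order. Of 7 endothelial markers, 4 were well above background on each array with 4-OHT and 2 with vehicle. Their sum was 20.99 with vitamin E, 21.7 with lutein, 23.9 with 4-OHT alone and 21.3 with vehicle, nearly all of it Kdr, and Cdh5, Tek and Tie1 were on no array well above background. The tight junction gene Cldn5 was at least 4.39-fold higher with 4-OHT alone than with vehicle, and Esam at least 2.35-fold higher. Of 10 pigment epithelium markers, 7 were well above background with vitamin E and 6 on each other array, 3 on none, and their sum was 16.3 with vitamin E, 18.9 with lutein, 19.4 with 4-OHT alone and 9.73 with vehicle. Of 12 Müller glia markers, 11 were well above background with vitamin E, 12 with lutein, 12 with 4-OHT alone and 11 with vehicle, with sums of 118, 123, 114 and 108 in that order. Most of the difference in the pigment epithelium sum was Dct, a melanin enzyme, with levels of 2.92 with vitamin E, 3.24 with lutein, 3.41 with 4-OHT alone and 0.99 with vehicle. Tyrp1 (-0.13), Pmel (-0.30) and Mitf (-0.12) had log2 differences below 0 between 4-OHT alone and vehicle. Tyr (0.36) and Rlbp1 (0.21), the latter also in the Müller glia list, lay above 0, as did Dct. Cyr61, Ctgf and Tagln were likewise higher on the 3 arrays with 4-OHT than with vehicle, and the part of Dct or of its cells in their levels was not tested.

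All 12 rod photoreceptor markers were well above background on every array, and rods are a defining cell type of the labelled tissue. Their sum was 1906.4 with vitamin E, 1480.1 with lutein, 1162.2 with 4-OHT alone and 2304.6 with vehicle, the same order of arrays as Myl9. In such pooled tissue, fewer cells of a type and less RNA per cell cannot be told apart. Pluripotent cell markers summed to 7.996 with vitamin E, 5.97 with lutein, 7.34 with 4-OHT alone and 16.7 with vehicle. Most of the sum with vehicle was Esrrb. Its level was 2.26 with vitamin E, 1.345 with lutein, 0.43 with 4-OHT alone and 3.635 with vehicle, the same order of arrays as the rod sum. Esrrb was the brightest of this list on every array except that of 4-OHT alone. On that array Tdgf1 was the brightest, at a level of 1.91. Whether the sum reflects pluripotent cells was not tested. Esrrb was 9.19-fold lower with 4-OHT alone than with vehicle, while Tdgf1 was 3.65-fold higher. Pou5f1 and Zfp42 were on no array well above background. Lens markers summed to 0.82, 0.95, 0.73 and 0.95 in that order. The part of these cells in the levels of the 10 genes was not tested.

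For the 5 genes measured on all 4 arrays, the closest genes were sought by the root mean square distance of their 3 log2 differences from vehicle, among 13766 other genes measured on all 4 arrays. The nearest to Actc1 was Vgf, a neuropeptide precursor, at a distance of 0.17, with differences of -0.15 with vitamin E, 1.49 with lutein and 2.21 with 4-OHT alone. Mideas followed at 0.24 and Tcap, the titin-binding protein telethonin of striated muscle, at 0.25. The nearest genes of the other 4 were Pip4k2a for Tagln (0.02), Sdhd for Myl9 (0.01), Rpl28 for Srf (0.006) and P4ha1, a collagen prolyl hydroxylase subunit, for Ctgf (0.02). With 3 differences that all share the vehicle array, such a distance ranks genes and shows nothing more.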

How the data were processed

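Each of the 4 groups gave 1 RNA pool, labelled with Cy3 and hybridised to a 1-colour Agilent array. The submitters' processing notes name Feature Extraction 10.7.3.1. The deposited spot intensity had been background-subtracted and detrended, per the file headers, which record mm9 as the build and no scaling across arrays. All 4 arrays share a slide and a scan, and the effects of slide position and of group cannot be told apart.

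Here, each array's 75th percentile over gene spots was subtracted from the log2 intensity, outlier spots were left out and spots of a probe averaged. A probe counted as well above background where at least 50% of its spots did, and the brightest probe stood for a gene. Gene names came from the vehicle file, since 57 names in the lutein file were altered and its values kept 3 significant digits. Names were updated through RefSeq accessions for 28331 of 55681 probes (50.9%). On each array 51.3% to 54.5% of spots were well above background and none was saturated. The number of arrays limits the precision.

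No test between groups was made: counts use a fixed 2-fold limit. The calculation of differences was checked on simulated data. The changed genes there started well above the detection limit. The check therefore did not cover bounds or changes of genes as dim as Actc1, Acta1 and Cyr61 with vehicle. The 10 genes and all lists were chosen with earlier results of these data known, and support nothing by themselves. Besides the 10 genes, the text names genes of the pathway lists past 2-fold for 4-OHT alone against vehicle (up to 6 per list). It also names every TEAD, YAP, TAZ, MRTF or actin gene. By distance, it names the 3 nearest genes for Actc1 and the 1 nearest for each other gene searched. Other pathway and marker genes named were chosen after their values were seen. Of 221 listed symbols, 220 were on the array. Alternatives changed the scaling, background correction (normexp in limma 3.58.1, R 4.3.3, offset 50), probe choice, filter, limit (1.5-fold and 4-fold) and source (the authors' deposited value table, a linear intensity divided by 1 number per array). Python 3.11.15 and pandas 2.3.3 were used. Exon annotation and protein sequences were not used here.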

Additional observations from a re-analysis of the deposited data

How the results depend on the processing

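Precision is limited by 1 array per group and by dim signals. No paired analysis was possible because there was a single array for each group. Of 234 recomputed differences of the 10 genes, 201 moved by less than the spot SD and 33 by more, and 14 changed sign, all of them small (Acta2, Tagln, Srf, Ctgf or Cyr61). Of 42 recomputed differences past 2-fold, 37 stayed past it and 5 did not (Acta1 with 4-OHT alone with quantile normalization, spike-in scaling and normexp, and, with normexp, Cyr61 with vitamin E and Actc1 with lutein, all against vehicle), and none reversed. Between 4-OHT alone and vehicle, the log2 difference ranged from 1.41 to 2.23 for Actc1, from 1.23 to 2.50 for Cyr61 and from 0.40 to 1.04 for Acta1, each lowest with normexp background, and from -1.06 to -0.78 for Myl9. With vitamin E against 4-OHT alone, Actc1 ranged from -2.67 to -1.61. The sign of Srf against vehicle turned when its probes were averaged (-0.03 with 4-OHT alone).

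With 4-OHT alone against vehicle, requiring both arrays to be well above background left 1 gene at least 2-fold higher, since Acta1 and Cyr61 dropped out, and a median of 0.46. Spike-in scaling gave 1 gene lower (Myl9) and a median of 0.41, the 1.5-fold limit 1 lower, and normexp a median of 0.41. With spike-in scaling, the all-gene median shifted by -0.16 in this comparison, by 0.22 with vitamin E and by 0.12 with lutein against 4-OHT alone. Both scalings subtract 1 number per array, so the genes' median relative to the all-gene median had to be the same under both (0.63 in this comparison). With normexp it was 0.45. The share of all 2-fold calls that were higher was 71.2% in this comparison and 53.3% with spike-in scaling.

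With vitamin E against 4-OHT alone, the 1.5-fold limit gave 1 gene higher (Myl9), and spike-in scaling a median of 0.11. The share of calls that were higher, compared here over the scalings alone, was 14.4%, against 30.3% with quantile normalization and 34.4% with spike-in scaling. With lutein against 4-OHT alone, the 1.5-fold limit gave 1 gene lower (Actc1) and spike-in scaling a median of 0.083, and the share was 23.1%, against 33.6% with spike-in scaling. With vitamin E against vehicle, genes at least 2-fold higher numbered 0 with normexp, 0 with both arrays well above background and 3 at 1.5-fold, and the median was 0.056 with both arrays well above background. The share was 35.5%, against 45.6% with quantile normalization. With lutein against vehicle, 1 gene was higher with normexp, 1 with both arrays well above background and 1 at 4-fold, and the medians were 0.42 with normexp and 0.38 with both arrays well above background. The cause of these shifts was not tested, other than the genes that a filter or limit removes.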
